A study of Mus musculus with 8 samples.

Results

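Tcf7, Lef1, Bach2, Bcl6, Id3, Satb1, Foxo1, Foxp1 and Klf2 encode transcription regulators known from naive and memory T cells. These 9 genes were taken by symbol and matched to their Ensembl identifiers among the 55536 genes counted. Of the 9, 8 passed the expression filter and are among the 11189 genes tested, while Bcl6 did not pass. All cells were CD8+ T cells from the lymph nodes of OT-I mice on the C57BL/6 strain and the Rag-1KO background, so that every cell carries the same transgenic receptor, for the ovalbumin peptide SIINFEKL, and the animals make no B cells or other T cells of their own. Donor mice were 5 to 12 weeks old. Cells were activated with 100 nM SIINFEKL for 2 days and then expanded for 2 days in 20 ng/mL IL-2, either with 10 µM GC7 (GC7, 4 libraries) or with its acetic acid vehicle (mock, 4 libraries), and each library holds RNA of a fixed number of harvested cells. GC7 inhibits DHPS, the enzyme that begins the conversion of a lysine of the translation factor eIF5a to hypusine, and it is also known to have effects independent of eIF5a. The comparison asks how mRNA levels differed when the modification of eIF5a was inhibited during the IL-2 phase. Peptide, IL-2, strain and receptor were common to both groups, and no library of naive or memory cells was analysed here, so the values describe activated cells with and without GC7.

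Naive CD8+ T cells circulate between blood and lymph nodes in a resting state that is held by a set of transcription factors. TCF-1 and LEF-1 (from Tcf7 and Lef1) bind the same DNA motif and maintain naive and memory identity, FOXO1 and KLF2 drive the genes for homing and egress, and BACH2, BCL6 and ID3 restrain effector differentiation. Antigen and strong IL-2 signals are known to lower many of these genes while effector regulators such as BLIMP-1 (from Prdm1) and ID2 rise, and memory cells regain or keep part of the naive pattern.

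Mock libraries held 20045041 to 25284730 counts and GC7 libraries 17528776 to 23449164 counts, and the members that passed the filter had at least 253 counts in every library. The values below are CPM, the counts of a gene relative to its library's total after scaling with TMM factors, given as mean ± SD with n = 4 libraries a group. Two-sided tests were edgeR's quasi-likelihood F tests, with p-values adjusted by Benjamini-Hochberg over all 11189 genes, and a gene was called lower or higher at an adjusted p under 0.01. Mock replicate 2 and GC7 replicate 3 stood apart from their groups in several genes, so the main results are also given with both left out, an alternative chosen after seeing the data. The methods call the replicates biological, but no source says whether they came from separate mice, so the p-values measure the spread between these libraries. In bulk RNA, fewer cells with a transcript and less of it per cell cannot be told apart. The T cell list held Cd3e, Cd3d, Cd3g, Cd8a, Cd8b1, Thy1, Lck and Gzmb. Its summed level was 8502 to 10050 CPM without GC7 and 5657 to 7473 CPM with it. The largest part came from the effector gene Gzmb, with a mean of 4415 CPM in mock and 2892 CPM in GC7 libraries. Of the 8 genes, 5 were lower and Cd8a was higher, against 23.5% and 23% of all tested genes, and Cd3d and Cd8b1 were called neither way. The part of this shift in the members' results was not tested. Of 16 markers of other lymph node cells, 3 were at 0 in all libraries of each group, among them the B cell gene Ms4a1 and the endothelial gene Cdh5 in both. Cd4 reached at most 0.407 CPM. The 16 genes had a summed level of 52.7 to 57.9 CPM in mock, against 36.2 to 38.4 CPM in GC7 libraries, most of it from Pecam1, which T cells also express. Without Pecam1 and Zbtb46, the only other marker that passed the filter, the sums were 1.48 to 2.44 and 1.89 to 3.03 CPM. Zbtb46, known from dendritic cells, had a mean of 0.455 CPM in mock and 4.09 CPM in GC7 libraries, and passed the filter only through the GC7 group.

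RefSeq gives 20 start sites for the 9 members in GRCm38.p6, and the 250 bases before each were searched on both strands for 5 short motifs. Promoter stretches of the 3 members that rose and of Klf2, the member that fell most, are shown 5′ to 3′ on the strand of the gene, leaving out bases that lie in annotated exons of the gene. Capitals mark motif matches. The Tcf7, Bach2 and Foxp1 stretches lie within their annotated genes, in introns, and that of Klf2 lies just upstream of its gene. The Tcf7 stretch lies before the second RefSeq start (chr11:52282596-52282711, minus strand) and holds the KLF motif CCACACCC on the opposite strand. The Bach2 stretch (chr4:32417185-32417434, plus strand) holds TTCNNNGAA, the type bound by STAT5 and BCL6, and the TCF and LEF core CTTTGA on the opposite strand. The Foxp1 stretch lies before its second RefSeq start (chr6:99266533-99266765, minus strand) and holds CTTTGA on the opposite strand. The Klf2 stretch (chr8:72318812-72319032, plus strand) holds none of the 5.
Tcf7: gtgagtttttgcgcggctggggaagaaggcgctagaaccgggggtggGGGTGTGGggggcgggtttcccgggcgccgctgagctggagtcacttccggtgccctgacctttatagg
Bach2: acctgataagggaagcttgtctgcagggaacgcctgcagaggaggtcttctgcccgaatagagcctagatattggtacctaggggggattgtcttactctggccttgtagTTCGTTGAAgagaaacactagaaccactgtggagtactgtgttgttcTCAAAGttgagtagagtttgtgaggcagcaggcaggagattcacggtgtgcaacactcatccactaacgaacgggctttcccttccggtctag
Foxp1: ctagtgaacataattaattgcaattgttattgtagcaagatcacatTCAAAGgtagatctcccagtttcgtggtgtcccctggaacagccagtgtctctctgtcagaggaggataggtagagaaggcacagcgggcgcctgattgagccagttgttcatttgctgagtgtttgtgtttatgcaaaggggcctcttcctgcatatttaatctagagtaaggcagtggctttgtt
Klf2: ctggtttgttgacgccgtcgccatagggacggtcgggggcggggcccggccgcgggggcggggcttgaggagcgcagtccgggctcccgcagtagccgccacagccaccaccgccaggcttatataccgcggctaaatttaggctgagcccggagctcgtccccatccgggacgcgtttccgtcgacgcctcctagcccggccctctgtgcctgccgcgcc
None of the matches shown overlap each other. In all, 6 of the 20 windows held at least 1 match, and none of the windows of Klf2, Foxo1, Satb1 or Id3 did. The share of all mouse windows with any of the 5 motifs was not counted. The 6 of 20 therefore has no background here, and members that rose and fell were not compared. For Tcf7 and Foxp1 the window shown is the one with a match, out of 2 and 3 windows. Lef1 held CTTTGA in 1 of its 4 windows, and both windows of Bcl6 held TTCNNNGAA. Of all 32851 mouse promoter windows of the same length, 13.8% held CTTTGA, 7.02% TTCNNNGAA, 6.75% the AP-1 and BACH type TGANTCA, 3.2% CCACACCC and 3.17% the FOXO and FOXP core GTAAACA. Neither TGANTCA nor GTAAACA was found in the members' windows. These matches are letters in a window and were not measured as binding.

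The members did not move together. Of the 8 tested, Tcf7, Foxp1 and Bach2 were higher in GC7 libraries, Klf2, Foxo1 and Satb1 were lower, and Lef1 and Id3 were called neither way. Over all tested genes, 23% were higher and 23.5% were lower, so that calls are common in this comparison. Past a 2-fold change, Tcf7 was higher and Klf2 was lower, against 3.17% and 5.31% of all tested genes. The groups did not overlap in 6 of the 8 tested members, against 55.6% of all tested genes. The median log2 fold change of the 8 was -0.14, and that of all tested genes was 0.02. With mock replicate 2 and GC7 replicate 3 both left out, the counts were again 3 lower and 3 higher.

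**Figure D1:**
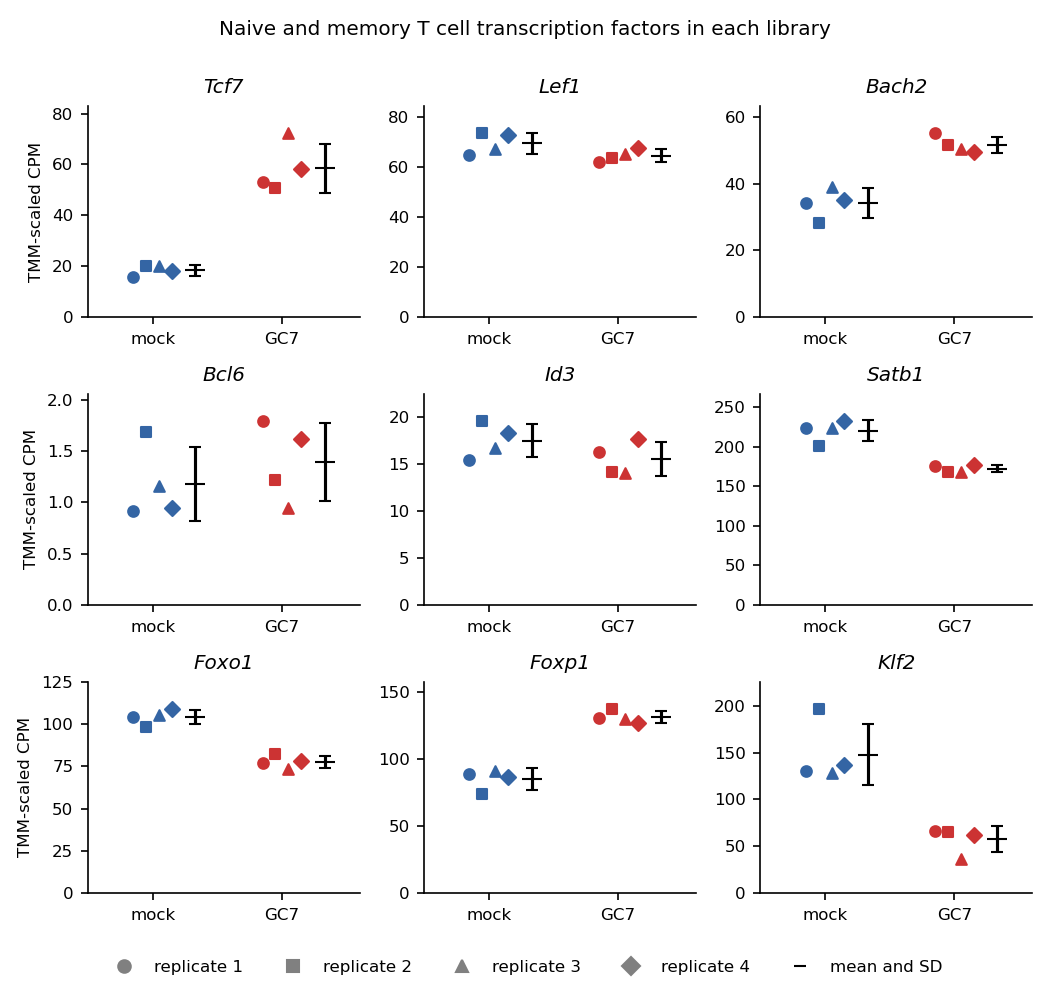
Level of each of the 9 genes in every library, as TMM-scaled CPM on a linear axis from 0, with mock in blue, GC7 in red, a symbol for each replicate number, and the mean and SD in black. The GC7 libraries lie above all mock libraries for Tcf7, Bach2 and Foxp1, below them for Klf2, Foxo1 and Satb1, and overlap them for Lef1, Id3 and Bcl6.

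The HMG-box factors that share a motif differed in their response. Tcf7 (ENSMUSG00000000782, chromosome 11, 52252371 to 52283014, minus strand, GRCm38) encodes TCF-1, which marks naive, memory and stem-like CD8+ T cells. It was at 15.6, 20.0, 20.1 and 18.1 CPM in mock replicates 1 to 4. In GC7 replicates 1 to 4 it was at 53.2, 50.7, 72.2 and 58.3 CPM. The lowest GC7 library thus lay well above the highest mock library, and GC7 replicate 3 was the highest of all. The mean rose from 18.5 ± 2.10 to 58.6 ± 9.62 CPM, or 3.17-fold, a log2 fold change of 1.66 (SE 0.118, 95% interval 1.41 to 1.92, adjusted p = 2.03e-07, edgeR). Without both outlying libraries it was 1.59. Lef1 (ENSMUSG00000027985, chromosome 3, 131110471 to 131224356, plus strand) encodes LEF-1, which acts with TCF-1 in naive cells. Its levels were 64.8, 73.4, 67.2 and 72.6 CPM in mock and 61.9, 63.6, 65.1 and 67.7 CPM in GC7 libraries. The groups overlapped. The means of 69.5 ± 4.16 and 64.6 ± 2.47 CPM gave a log2 fold change of -0.11 (SE 0.0633, adjusted p = 0.166, edgeR), and its 95% interval, from -0.24 to 0.03, lay wholly below that of Tcf7.

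The repressors BACH2 and BCL6 are both known for delaying effector differentiation, BACH2 by competing with AP-1 factors and BCL6 by opposing BLIMP-1. Bach2 (ENSMUSG00000040270, chromosome 4, 32238804 to 32586108, plus strand) was at 34.1, 28.3, 39.1 and 35.0 CPM in mock and 55.1, 51.7, 50.3 and 49.5 CPM in GC7 libraries. Every GC7 library exceeded every mock library, and mock replicate 2 was the lowest. The mean rose from 34.1 ± 4.47 to 51.7 ± 2.47 CPM, or 1.51-fold, a log2 fold change of 0.60 (SE 0.0906, adjusted p = 0.000122, edgeR), and 0.53 without both outlying libraries. Bcl6 (ENSMUSG00000022508, chromosome 16, 23965052 to 23988852, minus strand) was barely detected, with 17 to 40 counts per library. It was at 0.918, 1.69, 1.16 and 0.947 CPM in mock and 1.79, 1.22, 0.944 and 1.62 CPM in GC7 libraries. The groups overlapped over almost their whole range. On the log2 CPM scale with a prior count of 2, the groups differed by 0.23 (two-sided exact permutation test, p = 0.371, the smallest possible with 4 against 4 libraries being 0.0286). With both outlying libraries left out, the 3 mock libraries lay below the 3 GC7 libraries and the difference was 0.56, where 3 against 3 libraries cannot give an exact permutation p below 0.1. Bcl6 is therefore left without a call. The antisense gene Bach2os, which overlaps exons of Bach2, had at most 24 counts in any library.

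Id3 and Satb1 act in different ways on the same early T cell programme. Id3 (ENSMUSG00000007872, chromosome 4, 136143497 to 136145755, plus strand) encodes an inhibitor of E proteins that marks long-lived memory precursors. Its levels were 15.5, 19.5, 16.7 and 18.2 CPM in mock and 16.3, 14.1, 14.0 and 17.7 CPM in GC7 libraries, and the groups overlapped. The means of 17.5 ± 1.78 and 15.5 ± 1.76 CPM gave a log2 fold change of -0.17 (SE 0.103, 95% interval -0.40 to 0.05, adjusted p = 0.175, edgeR). Satb1 (ENSMUSG00000023927, chromosome 17, 51736187 to 51833290, minus strand) encodes an organiser of chromatin that is abundant in thymocytes and naive T cells. Its levels were 224.2, 200.7, 223.8 and 232.2 CPM in mock and 176.1, 168.7, 167.9 and 177.3 CPM in GC7 libraries. All GC7 libraries lay below all mock libraries and close to each other. The mean fell from 220.2 ± 13.6 to 172.5 ± 4.91 CPM, a 1.28-fold change (log2 fold change -0.35, SE 0.0613, adjusted p = 0.000364, edgeR).

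The forkhead genes changed in opposite directions. Foxo1 (ENSMUSG00000044167, chromosome 3, 52268336 to 52353221, plus strand) encodes the factor that AKT signalling expels from the nucleus, and that supports Klf2, Ccr7, Il7r and Tcf7 in resting cells. Its levels were 104.4, 98.7, 105.5 and 109.0 CPM in mock and 77.3, 82.4, 73.4 and 78.3 CPM in GC7 libraries, without overlap. The mean fell from 104.4 ± 4.28 to 77.8 ± 3.66 CPM, a 1.34-fold change (log2 fold change -0.42, SE 0.0597, adjusted p = 7.05e-05, edgeR). Foxp1 (ENSMUSG00000030067, chromosome 6, 98925338 to 99522721, minus strand) encodes a forkhead repressor that keeps naive T cells quiescent and competes with FOXO1 at shared sites. Its levels were 89.1, 73.8, 91.6 and 86.6 CPM in mock and 130.9, 137.5, 129.9 and 127.1 CPM in GC7 libraries, again without overlap. The mean rose from 85.3 ± 7.94 to 131.4 ± 4.40 CPM, or 1.54-fold (log2 fold change 0.62, SE 0.072, adjusted p = 1.32e-05, edgeR). In mock libraries Foxp1 counts were thus below Foxo1 counts in every library, and in GC7 libraries they were above them in every library. Whether these mRNA differences were carried through to protein or to the nuclear location of FOXO1 was not measured in these libraries.

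Klf2 (ENSMUSG00000055148, chromosome 8, 72319033 to 72321656, plus strand) encodes a zinc finger factor that switches on S1pr1 in resting T cells. It was at 129.9, 196.3, 128.6 and 136.6 CPM in mock and 66.2, 65.0, 36.8 and 61.6 CPM in GC7 libraries. The groups were far apart, but mock replicate 2 was the highest and GC7 replicate 3 the lowest, each at a distance from the other 3 libraries of its group. The mean fell from 147.8 ± 32.5 to 57.4 ± 13.9 CPM, or 2.57-fold (log2 fold change -1.36, SE 0.18, 95% interval -1.75 to -0.97, adjusted p = 4.04e-05, edgeR). Without mock replicate 2 the log2 fold change was -1.20, without GC7 replicate 3 it was also -1.20, and without both it was -1.03 (adjusted p = 6.28e-11, edgeR). The direction and the call were kept in each, with a smaller decrease. Both libraries were left out after they were seen to be the extremes of Klf2 in their groups. Leaving out extremes narrows the spread, so the p without both is a description.

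**Figure D2:**
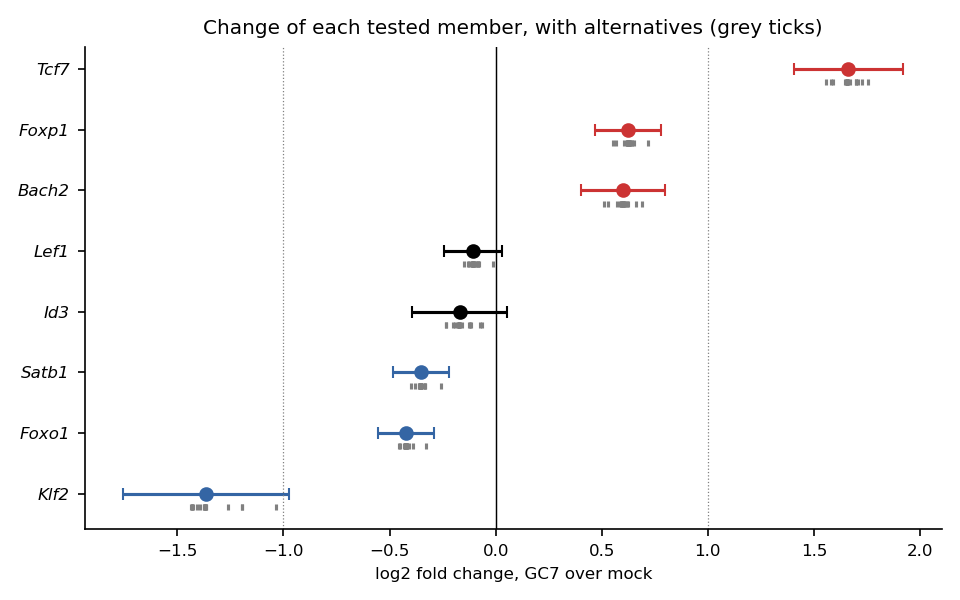
Log2 fold change of GC7 over mock for the 8 tested members, with 95% intervals from edgeR as bars (red higher, blue lower, black called neither way) and the estimates under the 16 alternatives as grey ticks below each point. Dotted lines mark a 2-fold change, which Tcf7 (1.66) and Klf2 (-1.36) passed, and the ticks of each gene stay on its side of 0.

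Set per kilobase of annotated exon, which allows levels to be compared between genes, Klf2 was the most abundant member in mock libraries at 80.0 ± 17.6 CPM per kb. Next came Foxo1 (12.1 CPM per kb), Satb1 (11.6 CPM per kb) and Id3 (9.76 CPM per kb), whose neighbours in this order overlapped in range. Lef1 (7.91 CPM per kb), Tcf7 (7.03 CPM per kb) and Foxp1 (6.20 CPM per kb) followed and likewise overlapped, with Bach2 (3.43 CPM per kb) and Bcl6 (0.176 CPM per kb) clearly below. In GC7 libraries Klf2 stood at 31.1 ± 7.53 CPM per kb and Tcf7 at 22.3 ± 3.66 CPM per kb, and these overlapped. Tcf7 had thus moved from the sixth place to the second. Foxp1 (9.55 CPM per kb), Satb1 (9.07 CPM per kb), Foxo1 (8.98 CPM per kb) and Id3 (8.67 CPM per kb) came next with overlapping neighbours, followed by Lef1 (7.35 CPM per kb), Bach2 (5.20 CPM per kb) and Bcl6 (0.208 CPM per kb), each apart from the next. Exon lengths are those of all annotated transcripts of a gene together, so genes with long unused exons are understated.

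The surface and survival genes that naive and memory cells are known for went in both directions. Of 16 such genes, all tested, 6 were lower, 5 were higher and 5 were called neither way (all tested genes: 23.5% lower, 23% higher), with a median log2 fold change of -0.31 against 0.02 over all genes. The lower count includes Cxcr3 and the higher count Dapl1, which each passed the filter only through the group where it is high. Both also enter the median. S1pr1 encodes the receptor that guides cells out of lymph nodes, and was at 45.5, 56.4, 50.4 and 52.2 CPM in mock and 10.0, 10.5, 13.9 and 11.1 CPM in GC7 libraries. It fell 4.51-fold (log2 fold change -2.17, SE 0.106, adjusted p = 7.94e-09, edgeR).

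Cxcr3, a chemokine receptor of effector and memory cells, was at 11.4, 14.9, 10.5 and 10.2 CPM in mock and 0.968, 1.90, 0.777 and 1.37 CPM in GC7 libraries. No GC7 library reached the filter's minimum of 3 CPM, so Cxcr3 was tested only through the mock group, where it is high, and its log2 fold change of -3.20 is a description. Dapl1, a transcript enriched in naive and TCF-1-positive cells, was at 2.18 to 2.54 CPM in mock and between 9.19 and 15.0 CPM in GC7 libraries. It passed the filter only through the GC7 group, so its log2 fold change of 2.38 is likewise a description. Slamf6, a receptor often used as a surface stand-in for TCF-1, did not follow Tcf7, and fell from 24.9 ± 3.85 to 11.7 ± 2.92 CPM (log2 fold change -1.10, adjusted p = 7.88e-05, edgeR). Il6st, the shared signalling chain of the IL-6 receptor family, rose by 0.72 and Actn1 by 0.39 on the log2 scale. Ccr7, the receptor that directs naive cells into lymph nodes, had a log2 fold change of -0.50 (adjusted p = 0.00377, edgeR), Ltb one of -0.48, Cd27 one of -0.29 and Bcl2 one of 0.34. The calls of these last 4 were each lost when some single libraries were left out. Without mock replicate 3, GC7 replicate 1 or GC7 replicate 4, 3 surface genes were lower, and without GC7 replicate 1 or GC7 replicate 2, 3 were higher. Part of these drops comes from the filter, since Cxcr3 was no longer tested without any single mock library and Dapl1 without any single GC7 library. Over all genes, 2273 were lower and 2080 higher without GC7 replicate 1, against 2635 and 2579 with all libraries. Il7r, the IL-7 receptor that sustains naive and memory cells, had a log2 fold change of -0.34 (adjusted p = 0.0276, edgeR) and was called neither way, as were Il6ra, Cd28, Igfbp4 and Nsg2.

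**Figure D3:**
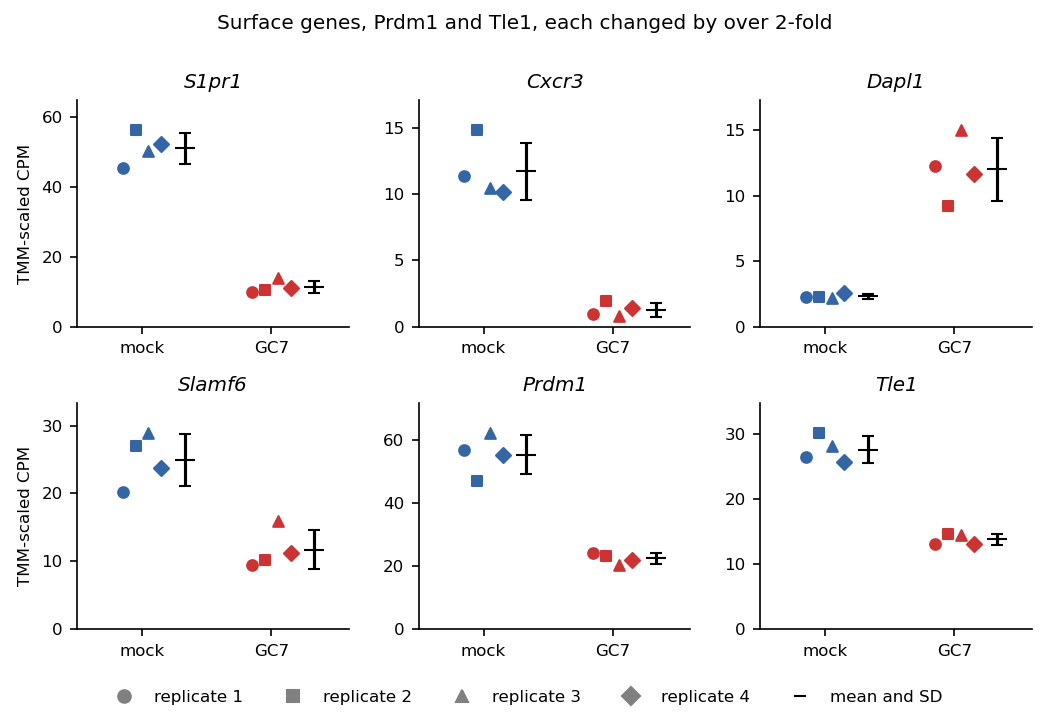
Levels of 4 surface genes, of Prdm1 and of Tle1 in every library, as TMM-scaled CPM on linear axes from 0, with mock in blue, GC7 in red and the mean and SD in black. Dapl1 lies higher in all GC7 libraries, and S1pr1, Cxcr3, Slamf6, Prdm1 and Tle1 lie lower, with no overlap between the groups.

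Among 9 factors that promote effector differentiation, 7 were tested, of which 4 were lower and none was higher, against 23.5% and 23% of all tested genes, with a median log2 fold change of -0.52 against 0.02. All 7 log2 fold changes were below 0 in edgeR, and none of the 7 was called higher by DESeq2 or limma-voom. Prdm1, which encodes BLIMP-1, was at 56.6, 47.0, 62.2 and 55.2 CPM in mock and 24.2, 23.1, 20.4 and 22.0 CPM in GC7 libraries. It fell without overlap (log2 fold change -1.30, adjusted p = 1.85e-07, edgeR). Runx3, a factor for cytotoxic identity, fell from 244.7 ± 17.6 to 124.9 ± 16.4 CPM (log2 fold change -0.97, adjusted p = 2.99e-06, edgeR). Id2, the effector counterpart of Id3, fell by 0.54 and Batf, an AP-1 factor, by 0.52 on the log2 scale. Tbx21, which encodes T-bet, had a log2 fold change of -0.08 (adjusted p = 0.527, edgeR), Irf4 one of -0.09 and Bhlhe40 one of -0.04, and none of the 3 was called. Eomes and Zeb2 were below the filter. Zeb2, an effector factor, ranged from 0.338 to 1.25 CPM in mock and from 2.32 to 2.99 CPM in GC7 libraries. It was the 1 effector factor called higher when low counts were not filtered.

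No family relative of the members was called past a 2-fold change. Of 16 relatives, 11 were tested, with 3 lower and 2 higher (all tested genes: 23.5% and 23%), and the log2 fold changes ran from -0.87 to 0.46 with a median of -0.14. The lower relatives were Foxo4, Klf10 and Id2, and Id2 is also counted among the effector factors. Foxo4 fell with Foxo1, by 0.68 on the log2 scale (adjusted p = 6.91e-06, edgeR), while Foxo3 stayed within the spread at 0.09 (adjusted p = 0.254, edgeR). Foxp4 was higher, as Foxp1 was, with a log2 fold change of 0.41 (adjusted p = 0.000961, edgeR). Klf10, a TGF-β-responsive relative of Klf2, fell by 0.87 on the log2 scale, and Klf4 had a log2 fold change of 0.46 (adjusted p = 0.00732, edgeR), a call that was lost without any single library other than GC7 replicate 3. Klf3, Klf6, Klf7 and Klf13 were called neither way. Without mock replicate 2, 6 relatives were lower in place of 3, and 1 was higher in place of 2. Tcf7l1, Tcf7l2, Id1 and Bcl6b were below the filter, so that Tcf7 and Lef1 were the TCF and LEF genes that passed it.

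Of 13 partners and cofactors through which the members act, 5 were lower and 2 higher, against 23.5% and 23% of all tested genes, with a median log2 fold change of -0.07. With library totals in place of TMM, 2 were lower and 3 higher. The Groucho corepressors that TCF-1 and LEF-1 recruit went both ways. Tle1 was at 26.4, 30.2, 28.1 and 25.7 CPM in mock and 13.1, 14.6, 14.4 and 13.0 CPM in GC7 libraries, a decrease just past 2-fold (95% interval of the log2 fold change -1.18 to -0.82, adjusted p = 6.59e-07, edgeR). Tle4 rose by 0.62 (adjusted p = 1.44e-05, edgeR), and Tle3 had a log2 fold change of -0.03 (adjusted p = 0.742, edgeR). Ctnnb1, which encodes the coactivator β-catenin, had a log2 fold change of -0.26, and Axin2, a common readout of β-catenin with TCF and LEF, had -0.07 (adjusted p = 0.643, edgeR). Of the E protein genes on which ID3 acts, Tcf12 was higher (log2 fold change 0.55) and Tcf3 was lower (-0.25). Mafg, a small Maf partner of BACH2, was lower (-0.36) and so was the corepressor-bound deacetylase gene Hdac3 (-0.36). Bcor, Ncor1 and Mafk were called neither way. The calls of Ctnnb1 and Tcf3 were lost without GC7 replicate 4 or mock replicate 4, which left 3 partners lower. That of Ctnnb1 was also lost without mock replicate 1, mock replicate 3 or GC7 replicate 3. Of the 16 alternatives, Ctnnb1 kept its call in 9 and Tcf3 in 13.

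Of 11 genes known for holding T cells quiescent, 5 were lower and 1 was higher, against 23.5% and 23% of all tested genes, with a median log2 fold change of -0.29. With library totals 4 were lower and 4 higher, so the split between directions depended on the scaling. Tsc22d3, a FOXO-responsive gene that encodes GILZ, fell from between 55.0 and 67.1 CPM in mock to between 28.4 and 33.4 CPM in GC7 libraries (log2 fold change -0.97, adjusted p = 7.28e-07, edgeR). Cdkn1b, which encodes the cell cycle inhibitor p27, fell by 0.46 on the log2 scale, Btg2 by 0.47, Elf4 by 0.41 and Pnrc1 by 0.35. Slfn2, needed for quiescence in T cells, was the 1 gene that rose (log2 fold change 0.84, adjusted p = 2.55e-05, edgeR). Btg1, Tsc1 and Zeb1 had log2 fold changes of 0.26, 0.30 and 0.31 and missed the threshold, and 3 quiescence genes were higher without mock replicate 2, and 2 without GC7 replicate 2. With both of the outlying libraries left out, 3 were higher.

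**Figure D4:**
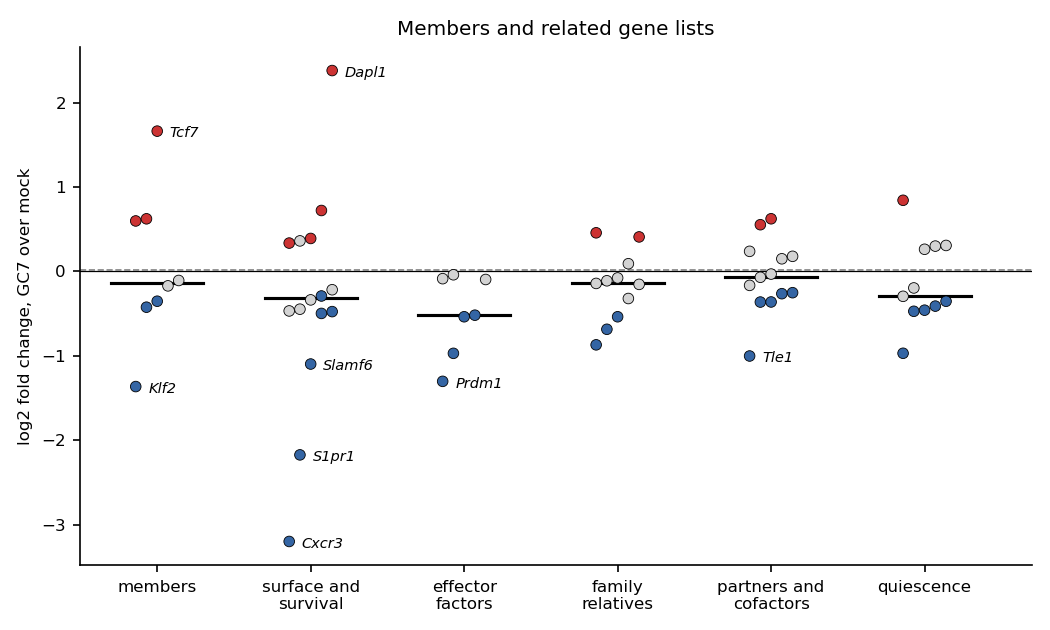
Log2 fold change of GC7 over mock for the tested genes of the 9 members and of 5 related lists (1 surface gene not shown), red where higher, blue where lower and grey where called neither way, with the median of each list as a black bar and that of all tested genes (0.02) as a dashed line. Genes past a 2-fold change are named, and every list but the effector factors holds both higher and lower genes.

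The protein-coding genes whose log2 CPM ran most closely with each member over the 8 libraries are given as a description. They were Ivd for Tcf7 (Pearson's r = 0.998), Zfp968 for Bach2 (0.998), Mgat4a for Foxp1 (0.997), 2610318N02Rik for Klf2 (0.997), Nbeal2 for Foxo1 (0.995) and Prdm16 for Satb1 (0.994). For the members without a call, the closest were Gpr137 for Lef1 (0.964) and Armc7 for Id3 (0.936). The points share their library, and for the called members they fall into the treatment groups. With the group means taken out, Zfp968 was again the closest to Bach2 (0.992), while for the others it was Neil1 for Tcf7 (0.994), Pus1 for Klf2 (0.995), Map3k1 for Foxp1 (0.994), Dhdh for Satb1 (0.987), Pomk for Lef1 (0.985), Alpk2 for Foxo1 (0.981) and Dalrd3 for Id3 (0.979).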

How the data were processed

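RNA of 8 libraries was sequenced as paired-end reads. Per the labels and the methods, the authors trimmed reads with Cutadapt, aligned them to GRCm38 with STAR, used featureCounts for counting over Ensembl genes, and deposited unnormalised counts, 1 file a library. The strand setting and the handling of reads with several matches are not given in the sources used here. All 55536 gene IDs matched GENCODE M21 (Ensembl 96), and matches of members to other genes were searched with BLAST (version 2.17.0, at least 200 bases and 90% identity). The matches found were overlapping genes of Lef1, Bach2, Foxo1 and Foxp1, none of which passed the filter, with at most 24 counts.

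Groups and replicate numbers were taken from the sample titles. Genes above 3 CPM in at least 4 libraries were kept (11189 genes). GC7 was compared with mock in edgeR (version 4.0.16, R version 4.3.3) with TMM factors and only group in the model, by the quasi-likelihood F test with the Benjamini-Hochberg adjustment. TMM centres most genes near 0, so a shift common to most mRNAs would not be seen. Bcl6 was compared by an exact permutation test of log2 CPM with a prior count of 2. The fit was tested on simulated data in which only a small part of the genes changed. A comparison with as many calls as this one was not simulated. Alternatives were RLE factors, library totals, no filter, filterByExpr, DESeq2 (version 1.42.0), limma-voom (limma version 3.58.1), a replicate block and each library left out in turn. A library was taken to stand apart where Dixon's ratio, its gap to the nearest of the other 3 over the range of its group, was above 0.829.

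The members and the gene lists (surface and survival, effector, relatives, partners, quiescence, cell type markers) were chosen with earlier results of these data known. All members are named, with the list genes called past a 2-fold change and, for each tested member, the protein-coding gene with the highest Pearson correlation over the 8 libraries, with and without the group means. Other list genes are given as examples, and a few list genes, 1 of them past a 2-fold change, are counted but not reported here by name. Counts come from reads without molecular identifiers. Other work used Python 3.11.15, scipy 1.17.1, pandas 2.3.3, numpy 2.4.6 and matplotlib 3.10.9.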

Additional observations from a re-analysis of the deposited data

Results flagged for a closer look

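In 18 of 152 groups of 4 libraries, a single library was distant from its 3 companions by Dixon's ratio. The groups were formed by the tested genes of all lists and by Bcl6. Chance gives about 1 in 20 for independent groups, but these share the same 8 libraries, so the rates were not tested against each other. Mock replicate 2 was the highest in 6 of the 18 and the lowest in 7. Klf2 was the only member among the 18. Its level was highest in mock replicate 2 (ratio 0.882, 196.3 CPM against a mean of 131.7 CPM in the other 3) and lowest in GC7 replicate 3 (ratio 0.844, 36.8 CPM against 64.3 CPM). Mock replicate 2 was also the highest of its group for Ltb (0.893), Slfn2 (0.883), Cd3g (0.96), Cd8b1 (0.974) and Thy1 (0.894). It was the lowest for Bcl2 (0.934), Klf7 (0.974), Klf13 (0.841), Ncor1 (0.939), Elf4 (0.895), Zeb1 (0.957) and Ets1 (0.849). GC7 replicate 3 was the lowest of its group for Klf4 (0.864) and Tcf3 (0.867). Mock replicate 4 was the highest for Mafk (0.894) and GC7 replicate 4 the lowest for Ncor1 (0.858). Over the 9 members, mock replicate 2 was the highest mock library for Klf2, Bcl6, Id3 and Lef1 and the lowest for Bach2, Foxp1, Satb1 and Foxo1, with ratios to the mean of the other 3 from 0.784 for Bach2 to 1.68 for Bcl6. GC7 replicate 3 was the highest GC7 library for Tcf7, at 1.34 times the mean of the other 3, and the lowest for Klf2 (0.572 times), Bcl6 (0.611), Id3 (0.877), Foxo1 (0.926) and Satb1 (0.965). The part of depth or RNA quality in these values was not tested.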

How the results depend on the processing

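All 8 tested members kept their direction and their side of the threshold under 15 other settings of the analysis and with both outlying libraries left out. Log2 fold changes ranged from 1.55 to 1.76 for Tcf7, 0.51 to 0.69 for Bach2, 0.56 to 0.72 for Foxp1, -1.44 to -1.03 for Klf2, -0.45 to -0.33 for Foxo1, -0.40 to -0.26 for Satb1, -0.15 to -0.01 for Lef1 and -0.24 to -0.06 for Id3. The difference in Bcl6 ranged from 0.10 to 0.56, with exact permutation p between 0.1 and 0.686, where 0.1 came from 3 against 3 libraries without overlap and is the smallest that design allows. With a single library left out, an exact permutation p under 0.05 was not possible either, so these settings could not give Bcl6 a call. Among all results for single named genes, 604 kept direction and side and 39 kept direction only. The 604 include the Bcl6 settings with libraries left out, where the side could not change.

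Counts in the lists moved more. With library totals in place of TMM, 3 surface genes were lower in place of 6, 2 partners lower in place of 5, and 4 quiescence genes lower and 4 higher in place of 5 and 1. Over all genes, library totals gave 2058 lower and 3346 higher (61.9% of calls higher), against 2635 lower and 2579 higher (49.5%) with TMM, and moved the median log2 fold change of all genes from 0.02 to 0.11. Without a filter, 1 effector gene and 4 quiescence genes were higher, with filterByExpr 1 effector gene, and with DESeq2 4 quiescence genes, beside 6 quiescence genes lower without a filter and 7 with DESeq2. With both outlying libraries left out, 6 relatives were lower and 3 quiescence genes higher, and over all genes 2985 were lower and 3049 higher. As single libraries were left out, surface genes numbered 3 to 7 lower and 3 to 5 higher, relatives 3 to 6 lower and 1 to 2 higher, partners 3 to 5 lower, and quiescence genes 1 to 3 higher. Over all genes, calls in these settings ranged from 2196 to 2733 lower and from 2032 to 2785 higher. Leaving out a mock library removed Cxcr3 from the tested genes, and leaving out a GC7 library removed Dapl1. Other causes were not tested.

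Same-numbered libraries did not deviate together (correlations 0.272, -0.116, 0.202 and -0.183), so the numbers were not taken as pairs. With the replicate block, 3 members were lower and 3 higher, 1 each past 2-fold, as without it, and over all genes 2485 were lower and 2382 higher. Bcl6 had 17 to 40 counts per library.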

Other observations

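Ratios of counts between 2 genes of the same library need no scaling between libraries, though not all of them are between genes of like length, so they are compared between the groups only. The pairs were chosen after their values were seen and are a description. The ratio of Tcf7 to Lef1 lay between 0.241 and 0.299 in mock and between 0.796 and 1.11 in GC7 libraries. That of Foxp1 to Foxo1 was 0.748 to 0.868 and 1.62 to 1.77. Bach2 to Prdm1, a repressor of effector fate to a promoter of it, was 0.602 to 0.635 without GC7 and 2.24 to 2.47 with it. Id3 to Id2 was 0.192 to 0.212 and 0.235 to 0.298, a separation that comes with a lower Id2 and no called change in Id3. In each of these 4 pairs, picked with their values known, the groups did not overlap, and no share over other pairs was taken.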
